A study of Mus musculus with 36 samples.

Results

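The alpha and beta globin loci of the mouse were described by the CTCF and MBD3 ChIP-seq peaks that lie within 100 kb of 8 member genes. The 4 members on chromosome 11 are Nprl3, Hba-x, Hba-a1 and Hba-a2, and the 4 on chromosome 7 are Hbb-bt, Hbb-bs, Hbb-bh1 and Hbb-y. Their annotated outer ends gave 120 peaks of the 182783 in the 8 lists, with 100 at the alpha globin locus and 20 at the beta globin locus. The rule uses positions only, and the members were picked with earlier results of these data known. ChIP-seq sequences the DNA that an antibody pulls down, and a peak is a stretch with more fragments than its background.

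Samples came from embryonic stem cells of the mouse. There are 36, in 12 groups of 3, made up of CTCF and MBD3 immunoprecipitates and input on each of days 0, 2, 4 and 6. All were grown with leukaemia inhibitory factor, the cytokine that keeps such cells undifferentiated, on irradiated embryonic fibroblast feeders. The names of the peak lists mark the cells as WT (wild type). The labels name no strain or agent, and do not state what separates day 0 from day 6. Each antibody and day has 1 list called on its 3 replicates together, so no value below has a replicate spread and no difference was tested. Feeder chromatin in the samples was not measured, and peak lists do not measure RNA, so the cell type could not be checked against its marker genes.

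Haemoglobin joins alpha-like and beta-like chains, and in erythroid cells each cluster is switched on by distant enhancers. Those of the mouse alpha cluster lie mostly in the introns of Nprl3, a housekeeping gene whose product belongs to the GATOR1 complex that restrains mTORC1 signalling. Those of the beta cluster form the locus control region, which lies beyond Hbb-y, on the side of further olfactory receptor genes. CTCF is a zinc finger protein that halts loop extrusion and flanks both clusters in many cell types. MBD3 belongs to NuRD, a complex that remodels nucleosomes and removes histone acetyl groups. Embryonic stem cells do not make haemoglobin, though the type of these cells could not be checked on any day.

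The alpha globin locus was dense in CTCF peaks, and the beta globin locus stood near the average of the lists. In the 265348 bp around the alpha members (GRCm38.p6, chr11:32131963-32397310), 22, 14, 19 and 19 CTCF peaks were listed on days 0, 2, 4 and 6. That is 82.9, 52.8, 71.6 and 71.6 peaks per Mb, beside 17.9, 10.6, 13.9 and 14.4 over the whole lists. In the 240684 bp around the beta members (chr7:103712524-103953207), 4, 3, 4 and 4 CTCF peaks were listed, or 16.6, 12.5, 16.6 and 16.6 per Mb. MBD3 followed the same order, with 8, 2, 9 and 7 peaks at the alpha locus and 2, 1, 1 and 1 at the beta locus. Per Mb these were 30.1, 7.54, 33.9 and 26.4 at the alpha locus and 8.31, 4.15, 4.15 and 4.15 at the beta locus. Over the whole MBD3 lists the values were 3.96, 0.764, 3.41 and 4.13. The beta locus was below them on no day, though it had only 1 peak on each of days 2, 4 and 6.

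Seen from the single genes, the surroundings of the alpha members held more CTCF peaks than those of most genes. On day 0, Nprl3 had 22 CTCF peaks within 100 kb, Hba-x 16, Hba-a1 14 and Hba-a2 13. Hbb-bh1 and Hbb-y had 4 each, and Hbb-bt and Hbb-bs had 3 each. The median of 21839 protein-coding genes was 8, with quartiles of 4 and 12. Nprl3 lay above 97.5% of them and Hba-a2 above 77.5%, while Hbb-bt and Hbb-bs lay above 18.1%. Neighbouring members share most of these peaks, so the 8 counts are not 8 separate observations. Of MBD3 peaks on day 0, Nprl3 had 8 within 100 kb and Hbb-bt had 1, with a median of 1 over all coding genes. The 2 windows also differ in what they hold, since 11 of the 16 annotated genes at the alpha locus code for proteins, and 13 of the 21 at the beta locus are olfactory receptor genes.

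**Figure D1:**
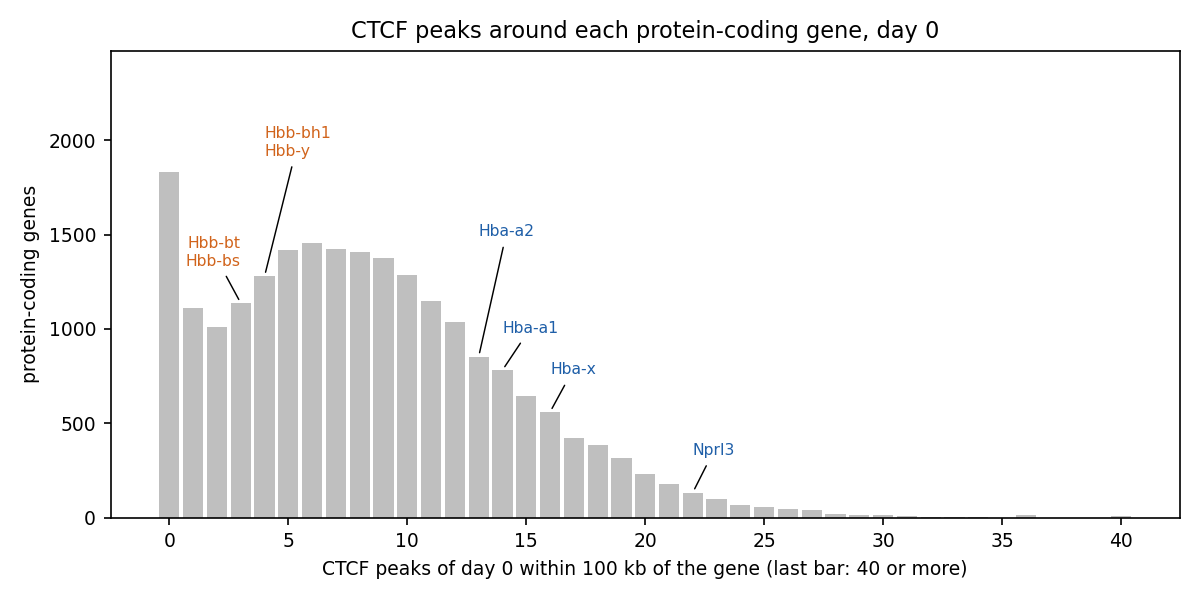
Number of protein-coding genes (vertical axis) by the number of CTCF peaks of day 0 within 100 kb of the gene (horizontal axis). The 4 alpha members, in blue, stand at 13 to 22 peaks and the 4 beta members, in orange, at 3 or 4, on either side of the median of 8.

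The depth of the libraries was not in the sources used here beyond what the lists carry. Fragments over each summit and their expected background were recovered from the fold enrichment and the -log10 p, as fold is the number of fragments plus 1 over the background plus 1. The lowest background that is common in a list ran from 1.83 to 2.87 fragments for CTCF and from 1.41 to 2.18 for MBD3, and is called the list's level below. Day 2 had the shortest lists of both antibodies, with 28137 CTCF and 1991 MBD3 peaks, against 36787 to 47414 and 9006 to 10875 on the other days. Intervals are exact Poisson 95% intervals of the fragments, with the background held fixed, and cover counting error only. They do not allow for PCR copies, which were not told apart by molecular identifiers. Folds of 1 site on several days rest on lists of different depth and background.

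Over the 4 days the alpha locus held 22 CTCF sites, a site being the union of peaks that overlap by at least 1 bp. They are numbered in the order of the chromosome, which also is the order Nprl3, Hba-x, Hba-a1, Hba-a2. Of these, 12 lay before Nprl3, 4 between the outer ends of the member genes and 6 after Hba-a2. A peak was present on all 4 days at 14 of the 22, beside 47.3% of the 53682 CTCF sites of the series. Without day 2, 18 of the 22 had a peak on every remaining day, beside 59.7%, so 4 sites lacked a peak on day 2 alone. Of the rest, 2 sites were listed on day 0 only. The beta locus had 4 CTCF sites, 2 before Hbb-bt and 2 after Hbb-y, and 3 of them were present on all 4 days.

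**Figure D2:**
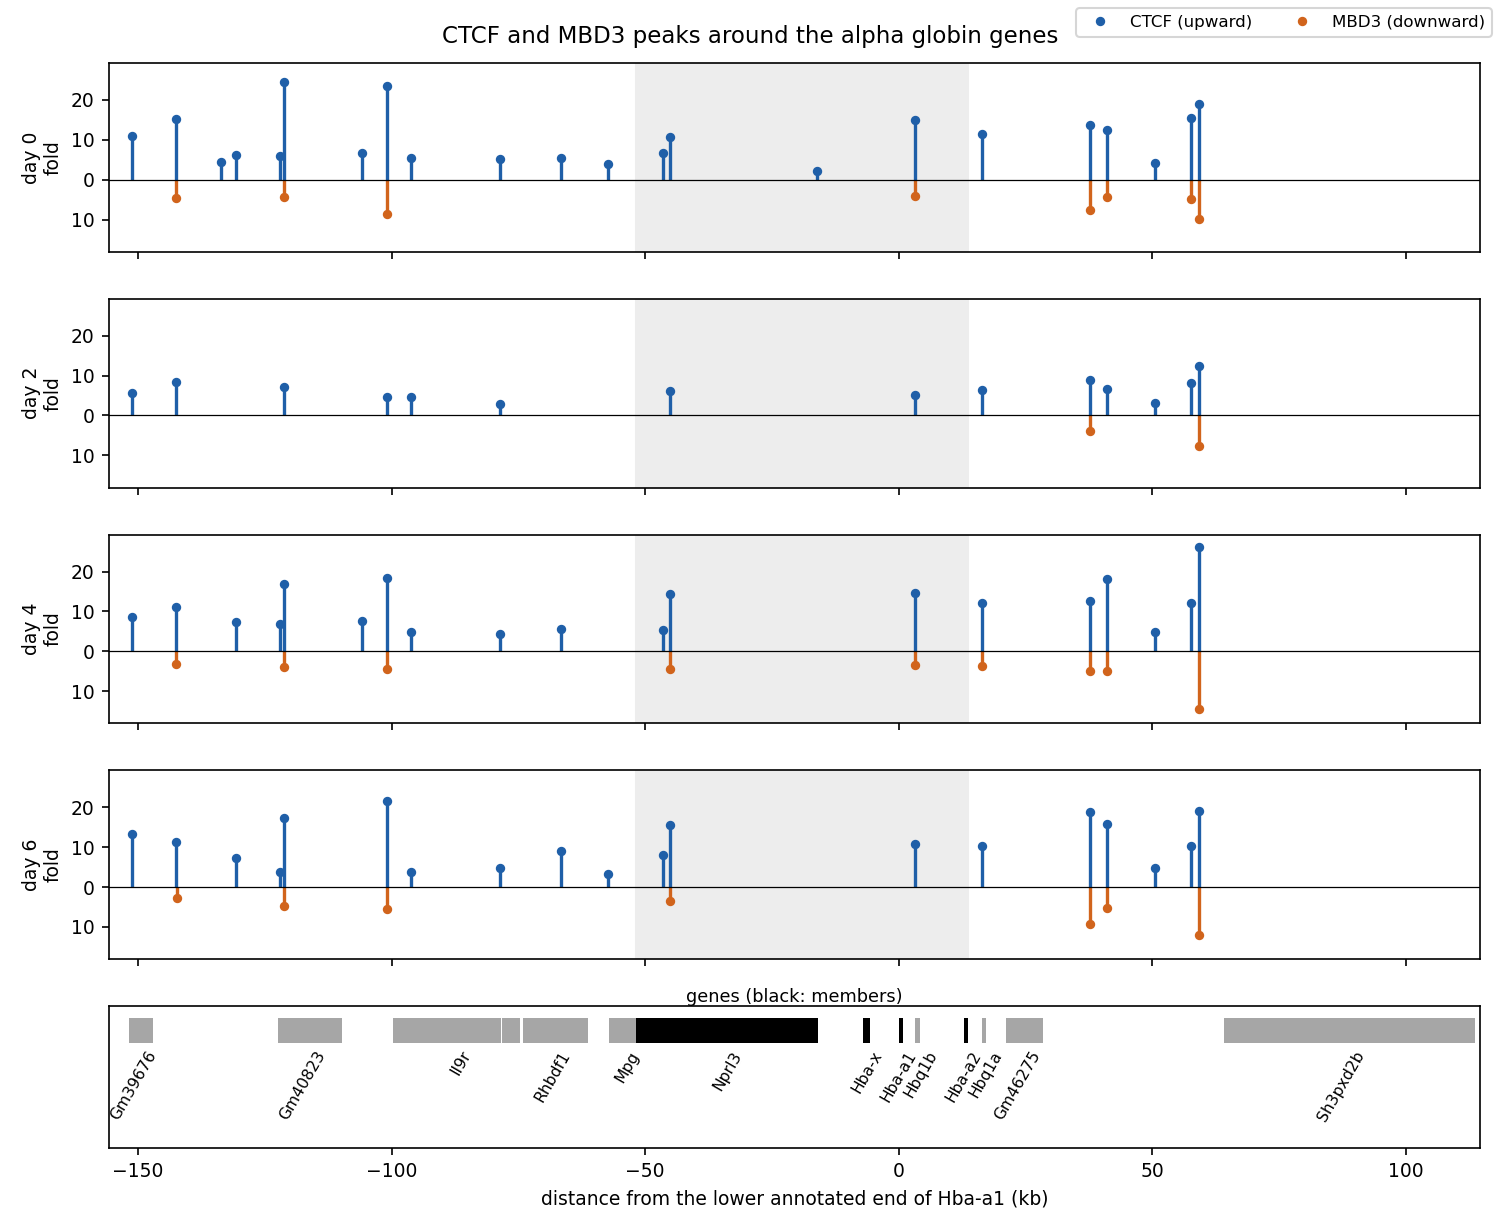
CTCF peaks (blue, upward) and MBD3 peaks (orange, downward) at the alpha globin locus by day, with linear fold enrichment on the vertical axis and distance from the lower end of Hba-a1 in kb on the horizontal axis. Grey shading spans Nprl3 to Hba-a2, and every MBD3 stem stands under a CTCF stem.

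In and just after the alpha block, CTCF peaks were listed in Nprl3 and at the theta globin genes, and none at Hba-x, Hba-a1 or Hba-a2. Site 14, in the body of Nprl3 (chr11:32238483-32238891), had CTCF folds of 10.8, 6.13, 14.3 and 15.6 on days 0, 2, 4 and 6. The fragments over its summit numbered 167, 113, 105 and 152, with backgrounds of 3.52 to 6.59 times the level. Site 13, also in Nprl3 and just before site 14, had lower folds of 6.70, 5.40 and 8.06 on days 0, 4 and 6 and no peak on day 2. Site 15 lies inside Nprl3 at the end from which the gene is transcribed, and was listed on day 0 only, with a fold of 2.18 (95% interval 1.54 to 3.01) from 35 fragments. That fold exceeded 3.12% of the CTCF peaks of its day. The outer ends do not tell exons from introns, so the place of these sites within Nprl3 is not given.

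Hbq1b and Hbq1a encode theta globins, alpha-like chains of no settled function, and each follows an adult alpha gene. Site 16 (chr11:32286735-32287470) covered the start of Hbq1b and began 2248 bp after Hba-a1. Its CTCF folds were 15.0, 5.07, 14.5 and 10.9 on days 0, 2, 4 and 6, from 261, 138, 195 and 210 fragments. Site 17 (chr11:32299855-32300254) covered the start of Hbq1a and began 2544 bp after Hba-a2. Its CTCF folds were 11.4, 6.28, 12.1 and 10.2, from 188, 121, 130 and 166 fragments. At both sites the day 2 interval, 4.27 to 5.99 at Hbq1b and 5.22 to 7.49 at Hbq1a, ended below the intervals of the other days. The whole CTCF list of day 2 also had the lowest median fold, 5.46 against 6.67, 8.56 and 8.91. Ranked within the lists, site 16 was lowest on day 2, at the 42.0th percentile. Site 17 was lowest on day 6, at the 59.1st percentile against the 64.9th on day 2.

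Both sites are shown as the 250 bases before the annotated start of Hbq1b (chr11:32286714-32286963, plus strand) and of Hbq1a (chr11:32299819-32300068, plus strand). The same stretch of Hba-a1 (chr11:32283422-32283671, plus strand) and of Hbb-bs (chr7:103827929-103828178, minus strand) is set beside them, both being globin promoters without a peak. Sequences are RefSeq's for GRCm38.p6, and capitals mark a match to the CTCF core motif.
Hbq1b: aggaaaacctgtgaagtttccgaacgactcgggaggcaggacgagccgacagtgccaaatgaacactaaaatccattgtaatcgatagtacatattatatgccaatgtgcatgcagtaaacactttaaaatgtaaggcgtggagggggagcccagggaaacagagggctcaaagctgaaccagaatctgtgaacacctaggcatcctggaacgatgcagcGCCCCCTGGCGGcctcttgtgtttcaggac
Hbq1a: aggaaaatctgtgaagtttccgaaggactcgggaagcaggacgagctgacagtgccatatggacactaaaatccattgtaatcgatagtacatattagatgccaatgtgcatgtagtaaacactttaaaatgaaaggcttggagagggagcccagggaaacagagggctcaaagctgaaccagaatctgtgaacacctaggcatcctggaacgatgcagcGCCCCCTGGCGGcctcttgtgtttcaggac
Hba-a1: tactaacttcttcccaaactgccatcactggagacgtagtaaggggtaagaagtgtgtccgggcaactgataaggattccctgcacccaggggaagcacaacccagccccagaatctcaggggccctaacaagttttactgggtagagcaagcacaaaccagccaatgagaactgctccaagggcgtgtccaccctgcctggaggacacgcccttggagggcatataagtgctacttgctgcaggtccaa
Hbb-bs: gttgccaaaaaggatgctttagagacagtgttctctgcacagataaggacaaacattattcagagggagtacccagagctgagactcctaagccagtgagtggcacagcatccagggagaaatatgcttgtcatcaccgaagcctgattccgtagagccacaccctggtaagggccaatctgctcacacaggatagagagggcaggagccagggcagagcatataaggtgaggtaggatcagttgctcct

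The motif searched was a shortened CTCF core, namely CC, 3 bases of any kind, AG, 2 bases of any kind and GGC, on both strands, chosen after these sequences had been seen. It matched once in each theta globin promoter, on the minus strand, where it reads CCGCCAGGGGGC, and the match ended 18 bases before the start of the gene. CTCF summits of the 4 days lay 9 to 25 bp from the middle of the match at Hbq1b and 2 to 19 bp from it at Hbq1a. The motif was found in 8.61% of 32851 promoters of 300 bases. It was found in 23.3% of the promoters under a CTCF peak of day 0 and in 6.04% of the others. The 300 bases at the starts of Nprl3, Hba-x, Hba-a1, Hba-a2, Hbb-bt, Hbb-bs, Hbb-bh2 and Hbb-y held no match. Those of Mpg and Snrnp25 held none either. CTCF peaks of day 0 overlapped the windows of Mpg, Snrnp25 and Nprl3. A match describes letters in this window and is not a measured binding site.

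The theta globin promoters are near copies of each other, with 286 of 300 bases equal (95.3%). Hba-a1 and Hba-a2 agree at 297 of 297 compared bases, after a shift of 3 bases, whereas Hbb-bs and Hbb-bt agree at 56.2% of 299. The spacing is alike too, as the CTCF summit lay 2478 bp after the end of Hba-a1 and 2746 bp after the end of Hba-a2. How reads that fit both copies were placed is not given in the sources used here, so the split of fragments between sites 16 and 17 is uncertain. The lack of a listed peak at Hba-a1 and Hba-a2 is uncertain for the same reason. MBD3 was listed at Hbq1b on days 0 and 4, with folds of 4.201 and 3.374, and at Hbq1a on day 4, with a fold of 3.61.

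Before Nprl3 the strongest CTCF sites lay in or near noncoding genes. Site 6 (chr11:32162048-32162741), in the long noncoding RNA gene Gm40823 and 69221 bp before Nprl3, had folds of 24.6, 7.27, 17.0 and 17.5 on days 0, 2, 4 and 6. Its day 0 fold exceeded 99.3% of the CTCF peaks of that day. Site 8 (chr11:32182528-32182928), 49034 bp before Nprl3 and nearest to the pseudogene Gm12109, had folds of 23.6, 4.51, 18.4 and 21.5. At site 8 the day 2 fold had an interval of 3.34 to 5.97, and the lowest bound of the other days was 15.1. Site 2, 90543 bp before Nprl3, had folds of 15.2, 8.44, 11.2 and 11.4.

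Of the remaining sites before Nprl3, site 1 reached a higher fold than site 2 on day 6, and the others were weaker. Site 1, in Gm39676 and 99229 bp before Nprl3, was the last site inside the limit, with CTCF folds of 10.96, 5.61, 8.57 and 13.4. The next site outward, 121700 bp before Nprl3, was listed on day 0 only with a fold of 5.63. Site 9, in Gm12109, had folds of 5.42, 4.59, 4.87 and 3.88. Site 10 lay at the end of Il9r, the interleukin 9 receptor gene, beside Snrnp25, which encodes a minor spliceosome protein. Its folds were 5.21, 2.79, 4.25 and 4.71, over backgrounds of 7.05 to 12.2 times the level.

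Days without a peak were frequent among these weak sites. Site 4, 78799 bp before Nprl3, had folds of 6.17, 7.32 and 7.28 on days 0, 4 and 6. Site 5, in Gm40823, had 5.81, 6.78 and 3.68 on the same days. Site 11, in Rhbdf1, which encodes an inactive rhomboid protein, had 5.33, 5.54 and 8.97. Site 7, 54026 bp before Nprl3, was listed on days 0 and 4, with folds of 6.69 and 7.67. Site 12, at the start of the DNA repair gene Mpg, was the nearest to Nprl3 on this side, at 5296 bp, and was listed on days 0 and 6 with folds of 4.00 and 3.38. Site 3, 81793 bp before Nprl3, was listed on day 0 only, with a fold of 4.36.

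After Hba-a2 the CTCF sites stood in a row that ended before Sh3pxd2b, a gene for a podosome adaptor protein. Site 17 at Hbq1a was the nearest. Site 18 (chr11:32320996-32321617), 23685 bp after Hba-a2, had folds of 13.8, 8.95, 12.6 and 18.8 on days 0, 2, 4 and 6. Site 19, 27290 bp after Hba-a2, had folds of 12.6, 6.65, 18.3 and 15.7. Site 20 was weak on every day, with 4.16, 3.21, 4.78 and 4.69 from 15 to 18 fragments.

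The outermost pair closed this row. Site 21, 43748 bp after Hba-a2, had CTCF folds of 15.4, 8.18, 12.2 and 10.4. Site 22 (chr11:32342756-32343192), 45445 bp after Hba-a2 and 4827 bp before Sh3pxd2b, had 18.96, 12.5, 26.1 and 19.2. Its folds exceeded 97.0%, 98.2%, 99.4% and 95.5% of the lists. No other CTCF site followed within 100 kb, and the next lay 152698 bp after Hba-a2, with folds of 9.02, 4.63, 7.93 and 10.9.

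The nearest CTCF neighbours of the alpha block thus were site 12 at 5296 bp and site 17 at 2544 bp, of which only site 17 was listed on all 4 days. On the 4 days the next CTCF peak lay 2248 to 2331 bp after Hba-a1 and 2544 to 2611 bp after Hba-a2, and none was nearer to Hba-x than 8618 bp. Between site 14 and site 16, which hold Hba-x and Hba-a1 between them, 48005, 47862 and 47890 bp carried no CTCF peak on days 2, 4 and 6. On day 0 the weak peak at the start of Nprl3 cut this stretch to 19040 bp. Hba-a2 lay in a gap of 12434 to 12843 bp on the 4 days. The median gap between neighbouring CTCF peaks was 18809, 34177, 26563.5 and 25187.5 bp over the lists of days 0, 2, 4 and 6.

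**Figure D3:**
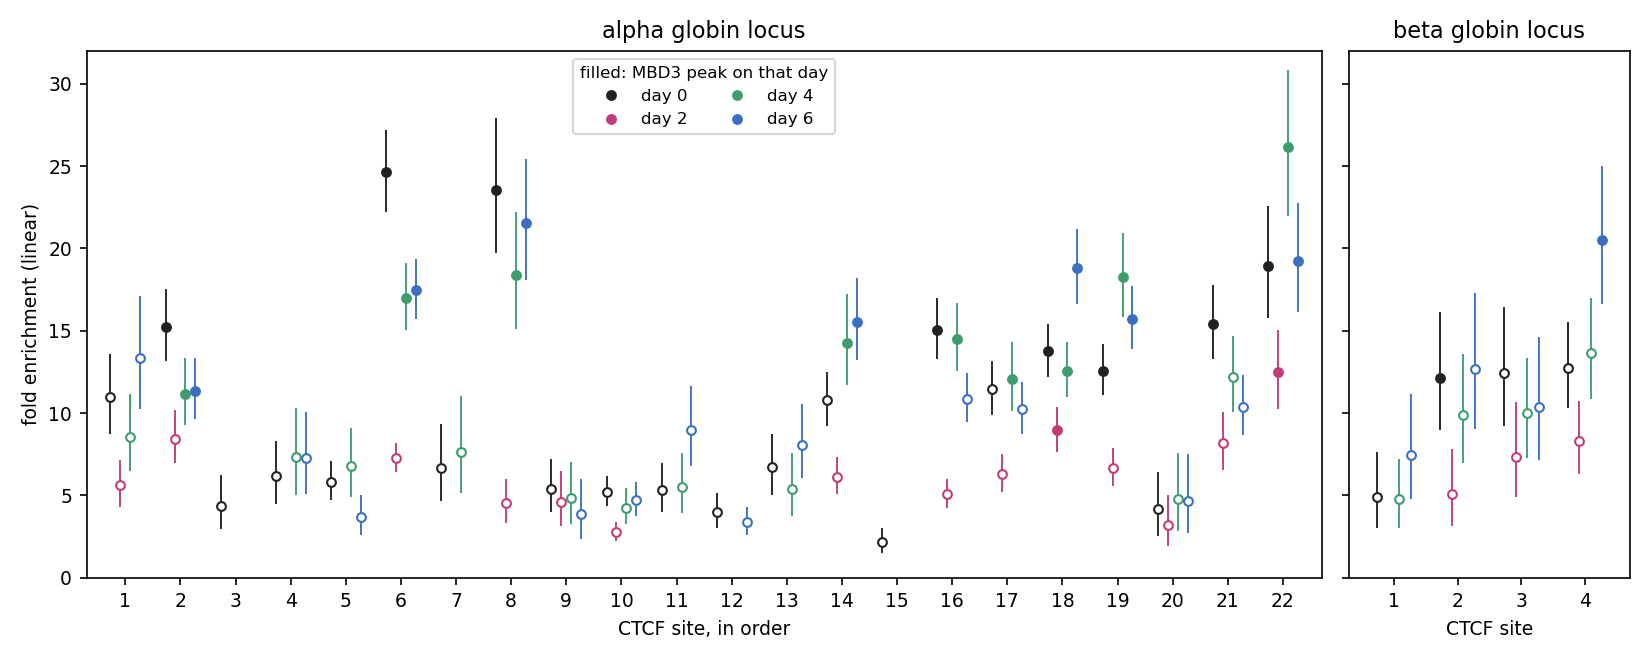
CTCF fold enrichment on a linear axis at the 22 alpha sites (left) and the 4 beta sites (right), in chromosome order, by day, with exact Poisson 95% intervals. Filled points overlap an MBD3 peak of the same day, and day 2, in magenta, is the lowest point at most of the sites present on all days.

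All 4 beta globin members lay in a single long stretch without CTCF. It measured 105769, 105873, 105769 and 105685 bp on days 0, 2, 4 and 6. It was longer than 88.8%, 79.0%, 84.3% and 85.2% of the gaps in the lists. Long gaps cover more of the genome than short ones, so a gap around a given gene tends to rank high. How this stretch compares with the gaps around other genes was not computed. Hbb-bt and Hbb-bs encode the adult beta chains, and Hbb-bh1 and Hbb-y the embryonic ones. Hbb-bt was nearest to an edge, 5197 to 5353 bp from it. Hbb-y was the most central, with 44427 to 44583 bp on 1 side and 59804 to 59852 bp on the other. The pseudogenes Gm15115 and Hbb-bh3, and Hbb-bh2, lie in the same stretch.

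**Figure D4:**
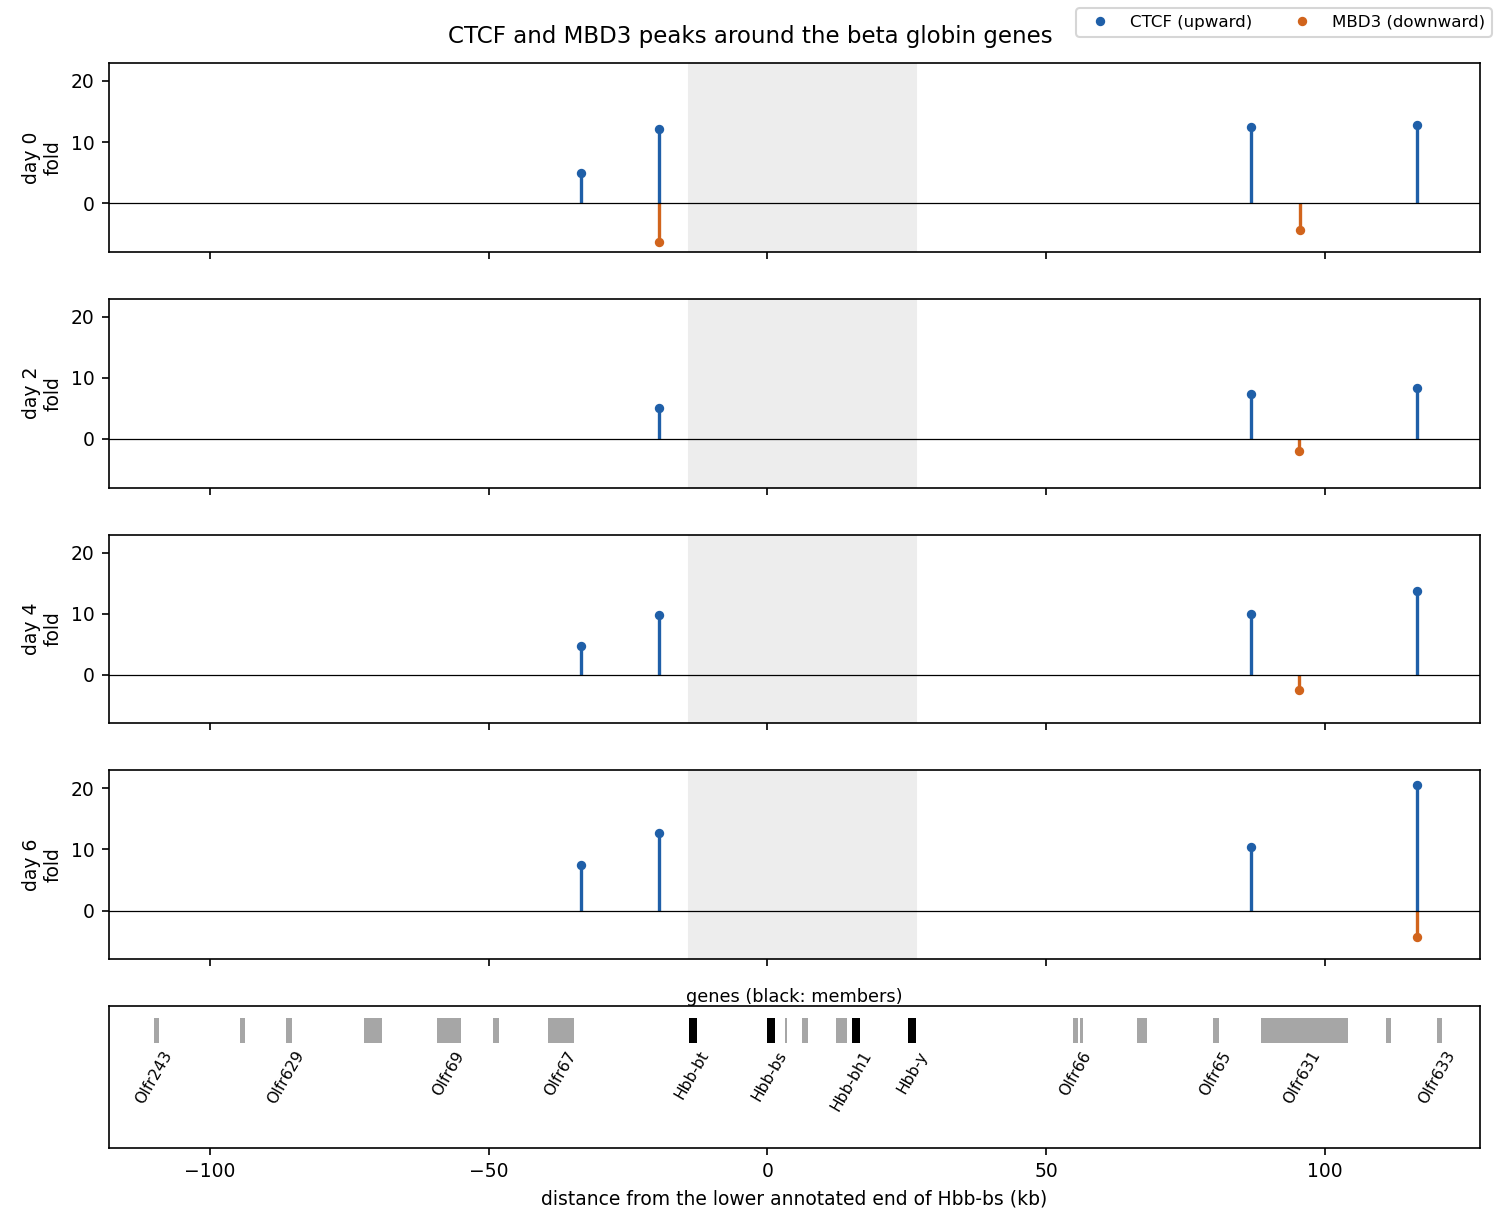
CTCF peaks (blue, upward) and MBD3 peaks (orange, downward) at the beta globin locus by day, with linear fold enrichment on the vertical axis and distance from the lower end of Hbb-bs in kb on the horizontal axis. Grey shading spans Hbb-bt to Hbb-y, and no stem of either antibody falls inside it.

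The CTCF sites that flank the beta genes were of middle to high fold. Site 2 of the beta locus (chr7:103806901-103807326), 5197 bp before Hbb-bt, had CTCF folds of 12.2, 5.09, 9.86 and 12.7 on days 0, 2, 4 and 6. Site 3 (chr7:103913012-103913365), 59804 bp after Hbb-y and between Olfr65 and Olfr631, had 12.4, 7.36, 9.98 and 10.4. These 2 sites are the nearest on each side on all 4 days. They rest on 46, 19, 35 and 38 fragments at site 2 and on 47, 26, 43 and 31 at site 3, fewer than at the strong alpha sites. Their backgrounds were 1.00 to 1.87 times the level.

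Farther out, site 4 (chr7:103942763-103943134), 89555 bp after Hbb-y and near Olfr633, had CTCF folds of 12.7, 8.30, 13.7 and 20.5. Its day 6 interval, 16.6 to 25.02, overlapped that of day 4, 10.9 to 17.0, and lay above that of day 0, 10.3 to 15.6. Site 1, 19298 bp before Hbb-bt and near Olfr67, had 4.91, 4.76 and 7.47 on days 0, 4 and 6 and no peak on day 2. Beyond the limit the next CTCF sites lay 396621 bp before Hbb-bt, listed on day 4 with a fold of 3.11, and 267110 bp after Hbb-y, listed on day 0 with a fold of 3.15.

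Day 2 had low CTCF folds at both loci and over its whole list. It had the lowest CTCF fold at 13 of the 14 alpha sites listed on all 4 days, and at 3 of 3 such beta sites. Site 9 was the exception, with its lowest fold on day 6. The share of all CTCF sites with their lowest fold on day 2 was not computed. Day 2 also had the lowest median CTCF fold over the whole lists, with 5.46 against 6.67, 8.56 and 8.91 on days 0, 4 and 6. When each fold was ranked within its own list, day 2 was lowest at 7 of the 14 alpha sites and at 1 of the 3 beta sites. The median rank of the 14 sites was at the 86.8th, 63.6th, 76.7th and 72.1st percentile on days 0, 2, 4 and 6.

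Background differed between the loci as well. The expected background under CTCF peaks had medians of 3.98, 5.57, 3.21 and 5.13 times the level at the alpha locus on days 0, 2, 4 and 6. At the beta locus these medians were 1.0, 1.1, 1.87 and 1.11, and over the whole lists 3.01, 3.30, 2.83 and 2.91. Its part in the number of peaks at each locus was not tested.

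MBD3 at the alpha globin locus was found only on CTCF peaks. All 8, 2, 9 and 7 of them overlapped a CTCF peak of the same day on days 0, 2, 4 and 6, beside 88.9%, 53.7%, 84.3% and 91.8% of the MBD3 lists. Summed over the days this is 26 of 26, beside 86.4% of 32336. With a limit of 200 kb, day 0 had 9 MBD3 peaks in place of 8, and the number on CTCF stayed at 26. The summits of the 26 peaks lay 0 to 45 bp from the CTCF summit, with a median of 9.5 bp. They form 10 sites, and 2 of these were present on all 4 days, beside 4.9% of the MBD3 sites of the series. Both lie after Hba-a2. The MBD3 folds were 9.90, 7.78, 14.5 and 12.1 at CTCF site 22 and 7.57, 3.90, 4.83 and 9.28 at CTCF site 18, on days 0, 2, 4 and 6. Site 22 rests on 38, 55, 79 and 68 MBD3 fragments.

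At 4 more alpha sites, MBD3 was listed on days 0, 4 and 6 and missing on day 2. Sites named in this paragraph bear their CTCF numbers, which differ from the MBD3 site numbers in the figure. With every MBD3 list cut to the length of the day 2 list, the alpha locus kept 3, 2, 4 and 4 MBD3 peaks on days 0, 2, 4 and 6, at 5 sites. In the full lists the folds on days 0, 4 and 6 were 4.64, 3.19 and 2.65 at site 2, and 4.42, 4.00 and 4.77 at site 6. They were 8.73, 4.47 and 5.48 at site 8, and 4.37, 4.84 and 5.13 at site 19. At site 8 the day 0 interval of 5.94 to 12.4 overlapped those of days 4 and 6, 3.02 to 6.39 and 3.71 to 7.84. In the body of Nprl3, site 14 had MBD3 on days 4 and 6, with folds of 4.38 and 3.52. Site 21 had it on day 0, with a fold of 4.97. Single days at these low folds rest on 24 to 46 fragments on day 0, 28 to 72 on day 4 and 26 to 71 on day 6.

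**Figure D5:**
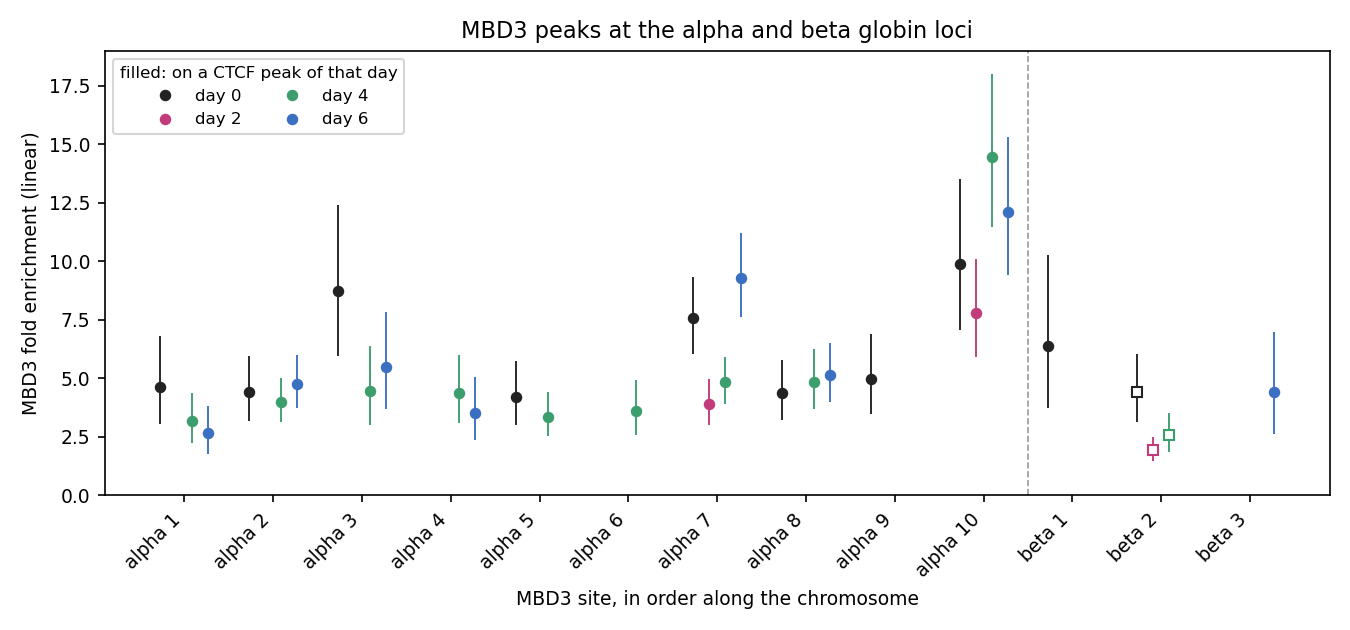
MBD3 fold enrichment on a linear axis at the 10 alpha sites and 3 beta sites, numbered along each chromosome, by day, with exact Poisson 95% intervals. Filled points overlap a CTCF peak of the same day, and the open squares at the second beta site do not.

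MBD3 stood on 8 of 22, 2 of 14, 9 of 19 and 7 of 19 alpha CTCF peaks on days 0, 2, 4 and 6, beside 19.5%, 3.8%, 20.6% and 26.1% of the CTCF lists. These were peaks of higher CTCF fold. At the alpha locus the median CTCF fold of peaks with MBD3 was 15.3, 10.7, 14.5 and 17.5 on days 0, 2, 4 and 6, against 5.62, 5.87, 6.16 and 7.67 for peaks without it. On day 0 the weakest CTCF peak with MBD3 had a fold of 12.6 and the strongest without it 11.4, so the groups did not overlap. On day 2 they were separate as well, at 8.95 and 8.44, with 2 peaks in the MBD3 group. They overlapped on day 4, at 11.2 and 12.2, and on day 6, at 11.4 and 13.4.

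The same order held over the whole lists. Of alpha CTCF peaks with a fold above the 80th percentile of their list, 8 of 9, 2 of 4, 6 of 6 and 6 of 6 overlapped MBD3 on days 0, 2, 4 and 6. The shares over the lists were 59.6%, 12.5%, 54.3% and 72.6%. Below that percentile, 0 of 13, 0 of 10, 3 of 13 and 1 of 13 alpha peaks did, beside 9.44%, 1.62%, 12.1% and 14.5% over the lists. At the beta locus 1 of 3, 0 of 1, 0 of 1 and 1 of 1 CTCF peaks above it overlapped MBD3. Numbers this small were not tested, and peaks of the locus share their libraries.

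MBD3 had few peaks at the beta globin locus, though not fewer per Mb than the whole lists on any day. On days 2, 4 and 6 that comparison rests on 1 peak. Within 100 kb, Hbb-bt had 0 MBD3 peaks on each of these days. Hbb-bs had 1, 1 and 0, and Hbb-bh1 and Hbb-y had 1 each. The medians over all coding genes were 0, 1 and 2. MBD3 was listed at CTCF site 2, before Hbb-bt, on day 0 with a fold of 6.39 (3.75 to 10.3) from 15 fragments. At CTCF site 4 it was listed on day 6 with a fold of 4.403 (2.627 to 6.99) from 16 fragments. The remaining site, inside Olfr631 and 68307 bp after Hbb-y, had no CTCF peak and MBD3 folds of 4.42, 1.93 and 2.58 on days 0, 2 and 4. Its background was 5.04, 12.6 and 7.52 times the level on these days. No MBD3 peak lay between the outer ends of the beta members on any day.

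Few of the 8 member genes had a peak at an end, and neighbouring members are not separate observations. No difference from the shares of all coding genes was tested. A CTCF peak within 1 kb of either end was found for 1 of the 8 members on day 0, which is Nprl3, and for 0 of 8 on days 2, 4 and 6. Over all protein-coding genes the shares were 34.4%, 15.6%, 20.4% and 21.1%. MBD3 was found at 0 of the 8 on each of the 4 days, beside 10%, 2.13%, 9.88% and 7.98%. Within 5 kb of an end, CTCF was found at 3, 2, 2 and 2 members, beside 56.2%, 35.8%, 43.3% and 44.5% of coding genes. MBD3 within 5 kb was found at 1, 0, 2 and 0 members, beside 20.2%, 4.33%, 18.9% and 19.1%. Nprl3 shared its pattern over the 8 lists, a fold of 2.18 for CTCF on day 0 and nothing else, with 6 other genes, of which Msantd3, Fndc4 and Zbtb16 are named. Their distance to it was 0 in log2(1 + fold). A CTCF peak on day 0 as the only entry was common, with 2501 genes and a median fold of 2.61. The other 7 members had no peak at an end in any list, like 13695 coding genes. For Hba-a1 and Hba-a2 this is uncertain, as the placing of reads that fit both copies is not given.

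Other globin genes and genes of the red cell had shares with CTCF and MBD3 near those of all coding genes. Of 42 such genes found in the annotation, 18, 10, 11 and 12 had a CTCF peak at an end on days 0, 2, 4 and 6, or 42.9%, 23.8%, 26.2% and 28.6%, beside 34.4%, 15.6%, 20.4% and 21.1% of all coding genes. MBD3 was at 6, 0, 5 and 4 of them, or 14.3%, 0%, 11.9% and 9.52%, beside 10%, 2.13%, 9.88% and 7.98%. Of the 6 other globin genes, Hbq1a and Hbq1b had CTCF on all 4 days, and Hbb-bh2, Mb, Ngb and Cygb had no peak of either antibody at an end.

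Of 14 erythroid transcription factors, 7, 3, 4 and 4 had CTCF at an end on days 0, 2, 4 and 6, beside 34.4%, 15.6%, 20.4% and 21.1% of all coding genes. Lmo2, a LIM adaptor of the erythroid factor complex, had CTCF folds of 14.7, 8.25, 15.6 and 10.3, and MBD3 folds of 6.60, 5.38 and 4.77 on days 0, 4 and 6. Sox6, a repressor of embryonic globin in the mouse, had CTCF folds of 11.7, 6.16, 16.0 and 8.16, and Gfi1b, a transcriptional repressor, 13.5, 4.495, 6.38 and 11.6. Both had MBD3 on day 0 only, with folds of 3.44 and 4.29. Zbtb7a, a repressor of fetal globin in human cells, had CTCF at 2.60 and MBD3 at 3.01 on day 0 only. Klf1, an activator of adult beta globin, had CTCF folds of 20.8, 9.84 and 10.9 on days 0, 4 and 6, no peak on day 2 and no MBD3. Gata1, Gata2, Tal1 and Nfe2, also factors of the erythroid programme, had no peak of either antibody at an end. Klf1 and these 4 genes were chosen after their values were seen.

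Haem synthesis genes had CTCF at 4, 2, 2 and 3 of 10, beside the same shares of 34.4%, 15.6%, 20.4% and 21.1% of coding genes. Ppox, a late enzyme of the pathway, had CTCF folds of 10.9, 4.86, 10.3 and 10.8 and an MBD3 fold of 2.82 on day 6. Slc25a38, a mitochondrial glycine carrier, had 5.498, 3.499, 10.7 and 8.14, and an MBD3 fold of 2.52 on day 4. Genes of the red cell membrane, iron uptake and signalling had CTCF at 5, 3, 3 and 3 of 12, which those shares also stand beside. Among them Ank1, the ankyrin of the membrane skeleton, had CTCF folds of 11.7, 5.97, 9.38 and 11.1, and MBD3 folds of 3.83, 3.496 and 3.20 on days 0, 4 and 6. Slc25a37, mitoferrin, had CTCF folds of 7.01, 6.50, 10.8 and 11.3 and no MBD3.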

How the data were processed

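The 36 ChIP-seq and input samples were grouped by antibody and day from the labels. The build was mm10 and peaks bear the form of MACS2, whose version 2.1.2 is named in the submitters' processing notes. These notes also list Bowtie2 2.3.4, bedtools 2.25.0, FastQC 0.11.7 and SAMtools 1.9. The authors deposited 8 peak lists, 1 per antibody and day on pooled replicates, with each peak's fold enrichment (a ratio of fragments to background) and its -log10 p and -log10 q. These are the authors' own values and describe or rank peaks within a list. Peaks with the same interval were counted once, with the summit of highest -log10 q, on chromosomes 1 to 19, X and Y.

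Fragments over each summit were recovered where the -log10 p matched within 0.01%, for 99.75% to 99.99% of a list. On 596 simulated summits the right number was found for 596, and a match was found for 7 of 200 unrelated pairs of fold and p. Overlap code was tested on 3000 simulated peaks and counted 493 overlaps, as bedtools did. A list's level is the lowest background value found in 0.5% or more of its peaks. Peaks per Mb use the span from the first to the last peak of each chromosome.

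RefSeq gave the gene ends for GRCm38.p6 (the mm10 assembly), without exons. Peaks of a locus lie within 100 kb of a member. At gene ends the window was 1 kb on either side. The members and gene lists were chosen with earlier results of these data known. Named are all members, all sites, and genes of the lists with CTCF at an end on all 4 days or MBD3 on any day, up to 4 per list by highest fold, except 1 that is not reported here. Klf1, and Gata1, Gata2, Tal1, Nfe2, Mb, Ngb, Cygb and Hbb-bh2, which had no peaks, were named after their values were seen. Likeness is the Euclidean distance over the 8 lists in log2(1 + fold). Of 43 listed genes 42 matched the table. Hbb-bh1 has no promoter sequence in the RefSeq table used. With no replicate values, no test was made. Analyses used Python 3.11.15 with scipy 1.17.1, pandas 2.3.3, matplotlib 3.10.9 and numpy 2.4.6.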

Additional observations from a re-analysis of the deposited data

How the results depend on the processing

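Under 10 alternatives, 170 of 224 recomputed counts and distances stayed within 1.5 times the reported value and 54 did not. The alpha globin CTCF counts stayed within that range under all alternatives run for them. With a limit of 50 kb, the beta locus had 2, 1, 2 and 2 CTCF peaks on days 0, 2, 4 and 6, 2 CTCF sites of which 1 was on all days, and 1, 0, 0 and 0 MBD3 peaks at 1 site, 1 of them on CTCF. With 200 kb, its MBD3 peaks on day 4 were 2. With a -log10 q of 10 or more, alpha MBD3 peaks on day 4 were 5. The beta locus then had 1, 0, 0 and 0 MBD3 peaks at 1 site, 0 on CTCF. The member genes had CTCF at 0 ends on day 0, and the erythroid lists had MBD3 at 3, 2 and 2 genes on days 0, 4 and 6. With every day cut to the shortest list of its antibody, the alpha MBD3 peaks on days 0, 4 and 6 were 3, 4 and 4, at 5 sites with 13 peaks on CTCF, and the nearest CTCF site before Nprl3 was 14750 bp away. The beta locus then had 0 MBD3 peaks on days 0, 4 and 6, 1 MBD3 site and 0 on CTCF, the members had 0 CTCF ends on day 0, and the erythroid lists 2, 1 and 0 MBD3 ends on days 0, 4 and 6. With 5 kb at gene ends, members had CTCF at 3, 2, 2 and 2 genes and MBD3 at 1 and 2 genes on days 0 and 4. The coding genes then had CTCF at 56.2%, 35.8%, 43.3% and 44.5%, and the erythroid lists had CTCF at 31, 21, 24 and 27 genes and MBD3 at 13, 2, 11 and 13. Without peaks whose background was over 10 times the level, an alternative added after the data were seen, the beta locus had 0 MBD3 peaks on day 2. Leaving out day 2 was also added then, and moved none of its 8 values by that much. Fewer peaks remain under the stricter settings by construction, and the cause of single changes was not tested. No paired analysis was possible because each list pools its replicates, and no replicate could be left out for the same reason. Some peaks at both loci rest on few fragments, such as alpha CTCF site 20 with 15 to 18 and the beta MBD3 peaks on CTCF with 15 and 16.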
